A study of Mus musculus with 6 samples.

Results

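The 10 S100 genes described here are S100a1, S100a3, S100a4, S100a6, S100a8, S100a9, S100a10, S100a11, S100a13 and S100b, out of 27670 gene names on a whole-genome mouse array. They were taken by name from the array's annotation, and the family was chosen on the measured difference in intensity between the lines, above all that of S100a6. The differences between lines of these 10 genes are therefore given as a description, and the count of them called in the fit over all genes is not evidence. Each gene had 1 probe and each probe 1 spot. RNA came from 2 lines of S49, a T lymphoma line of the mouse. S49 Neo is the parent, and MR 4-25 is named as recovered from mannitol, a sugar alcohol that raises the osmolarity of culture medium. Both lines were grown without treatment, and each had 3 samples with 1 array per sample, hybridised with the single dye Cy3. Each line is 1 line, so a difference between them cannot be told apart from any other way in which these 2 cultures diverged, and the labels do not say whether replicates were separate cultures.

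S100 proteins are small calcium sensors with a pair of EF-hand loops. Most form dimers that open on binding calcium and then hold a partner such as an annexin, a myosin or a ubiquitin ligase adaptor, and some are secreted and act on receptors of neighbouring cells. Most of the genes lie in a cluster on mouse chromosome 3, and different members are typical of different cells: S100a8 and S100a9 of neutrophils and monocytes, S100b of glia, S100a1 of heart muscle, S100a4 of motile cells, memory T cells and fibroblasts.

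Levels are given as the scanner software's processed intensities, in which dim spots can hold a surrogate value set by the software and which can be set against each other for the same probe only, and differences on the log2 scale after division by the 75th percentile of each array. That percentile was 844 to 988 intensity units on 5 arrays and 521 on MR 4-25 3, so an intensity on that array stands for a higher relative level. Neo 1, Neo 2, MR 4-25 1 and MR 4-25 2 shared slide 1, and Neo 3 and MR 4-25 3 shared slide 2. All 11 T cell markers looked at, among them Cd3e, Thy1 and Lck, were well above background on all arrays of both lines. Of the 11, Cd247, which encodes the signalling zeta subunit of CD3, passed the test between lines and fell by 4.06 on the log2 scale in MR 4-25 (limma adjusted p = 0.0272), and the other 10 did not pass. Detection alone does not set T cells apart, since of 6 B cell markers 5 were well above background on all Neo arrays and 3 on all MR 4-25 arrays. Of these 6, Blnk alone passed the test and was lower by 1.90 in MR 4-25. A lower RNA level per cell and a smaller share of cells with the RNA cannot be told apart in such bulk samples.

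The probes of several S100 genes share a short stretch of sequence. Among 408 patterns of 10 bases from the S100a6 probe with 1 base free, 3 were held by 4 of 17 probes named for S100 genes, the highest number, and the first of these along the probe was ACTTCNAGGA. On either strand it occurred in 0.0899% of all 41174 probes; since the pattern was picked for its presence in S100 probes, this is a description. The 4 probes are shown because they detect the gene with the largest difference, its nearest neighbour S100a5, a member at background and the member outside chromosome 3. They are written from 5′ to 3′ as the array's files give them, with that pattern in capitals.
S100a6: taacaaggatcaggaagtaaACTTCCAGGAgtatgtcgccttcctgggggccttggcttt
S100a5: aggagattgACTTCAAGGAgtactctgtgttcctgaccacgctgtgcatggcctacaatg
S100a8: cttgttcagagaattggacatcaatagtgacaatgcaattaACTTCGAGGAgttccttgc
S100b: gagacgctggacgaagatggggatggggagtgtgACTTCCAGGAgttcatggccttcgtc
The S100a6 probe lies at chr3:90744440-90744499 of build mm7, the S100a5 probe at chr3:90741771-90741830 and the S100a8 probe at chr3:90800058-90800117. The S100b probe lies at chr10:75915615-75915674. The longest run of bases that the S100a6 probe shared with a probe of any other gene was 12 of its 60. Only exact runs on the same strand were searched, so likeness with mismatches was not measured.

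S100a6, also called calcyclin, is a calcium sensor that binds annexins and the ubiquitin ligase adaptor Cacybp. Its intensities were 246, 249 and 234 in Neo 1, 2 and 3, and 15411, 17660 and 13176 in MR 4-25 1, 2 and 3. The 3 MR 4-25 arrays were far above the 3 Neo arrays, and the arrays of each line lay close together. It was well above background on all 6 arrays and saturated on 0, so both levels were measured. The log2 difference of MR 4-25 minus Neo was 6.27 ± 0.17 (SE, n = 3 per line), or 77.3-fold. Within slide 1 it was 6.09 and within slide 2 it was 6.63. Leaving out any 1 array gave 6.12 to 6.38.

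S100a4, known as metastasin, binds non-muscle myosin and is linked to cell motility. Its intensities were 1275, 911 and 1692 in Neo and 2257, 3321 and 1902 in MR 4-25, in replicate order. All MR 4-25 arrays were higher than all Neo arrays, both as intensities and after scaling. The log2 difference was 1.25 ± 0.28 (SE, n = 3 per line), or 2.38-fold, 1.38 within slide 1 and 0.99 within slide 2.

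S100a3, a zinc- and calcium-binding member known from the hair cuticle, was the other member with a mean difference of 1 or more. Its intensities were 122, 110 and 198 in Neo and 165, 237 and 295 in MR 4-25. Neo 3 was above MR 4-25 1, so the lines overlapped. The log2 difference was 1.00 ± 0.54 (SE, n = 3 per line), 0.80 within slide 1 and 1.39 within slide 2, and 0.55 without MR 4-25 3. S100a5, which is not 1 of the 10 genes and has its probe between those of S100a4 and S100a6, had intensities of 70.8, 42.3 and 174 in Neo and 124, 73.5 and 229 in MR 4-25. These overlapped as well, and the difference was 0.96 ± 0.92 in log2 (SE, n = 3 per line), 0.84 within slide 1 and 1.22 within slide 2.

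**Figure D1:**
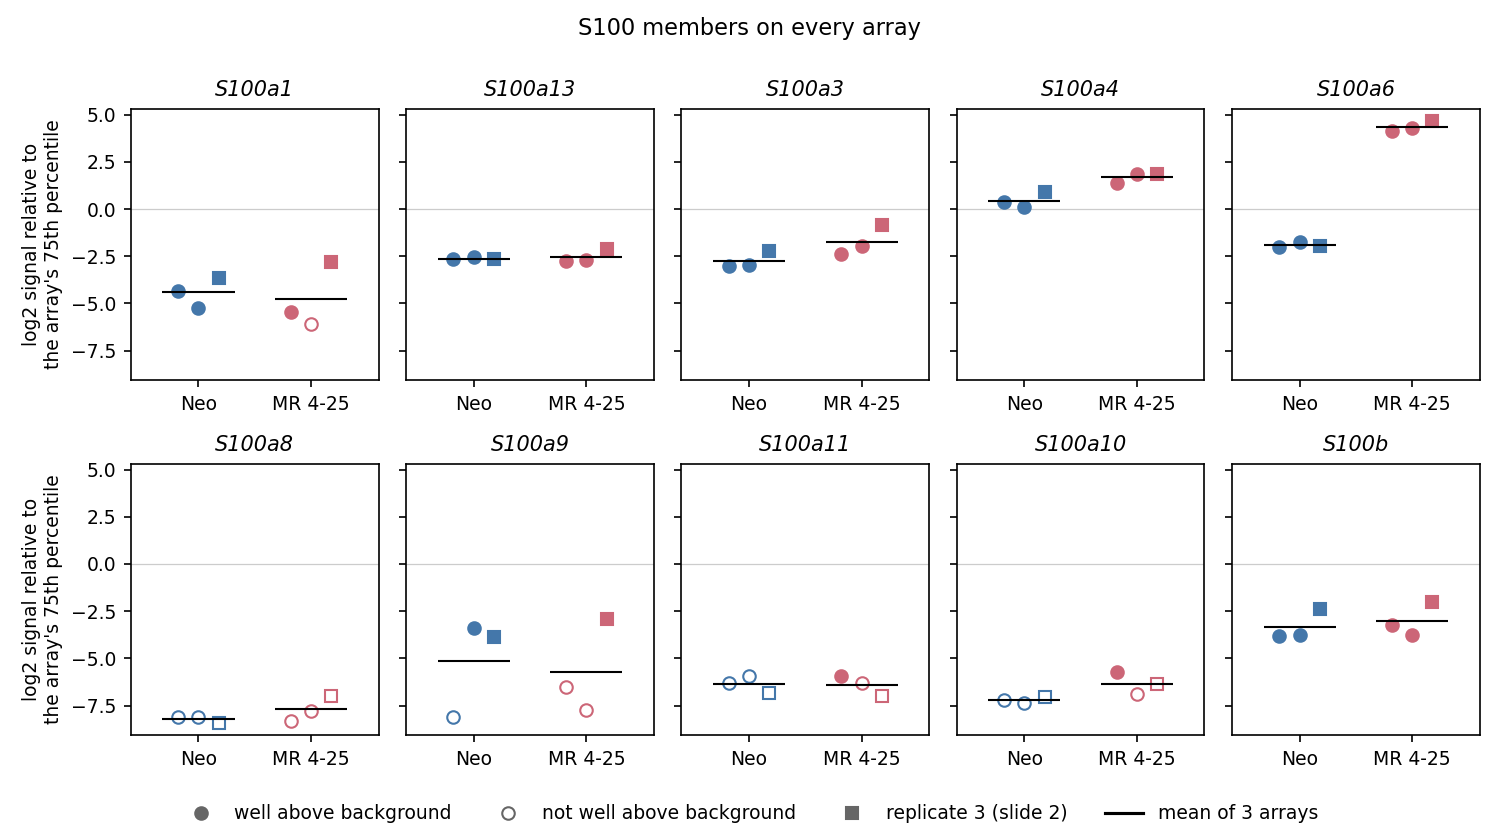
Each panel shows 1 gene, with the log2 signal relative to the array's 75th percentile on the vertical axis and a point for each of the 3 arrays of Neo (blue) and MR 4-25 (red). Filled points were well above background, squares are replicate 3 on slide 2 and lines are means. S100a6 goes from −1.91 in Neo to 4.36 in MR 4-25 with no overlap, S100a4 from 0.45 to 1.70, and S100a8 has open points only.

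S100a13 takes part in the release of fibroblast growth factor 1 from cells. It gave 159, 144 and 144 intensity units in Neo and 130, 140 and 119 in MR 4-25, and was well above background on all 6 arrays. After scaling the lines overlapped. MR 4-25 minus Neo came to 0.09 ± 0.20 in log2 (SE, n = 3 per line), −0.13 within slide 1 and 0.54 within slide 2, so its sign was not stable.

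S100b, the glial member, was well above background on all 6 arrays, at 69.9, 61.6 and 178 in Neo and 92, 67 and 127 in MR 4-25. In each line the slide 2 array was the highest, and the lines overlapped. The log2 difference was 0.31 ± 0.70 (SE, n = 3 per line) and turned to −0.19 without MR 4-25 3. Of 4 glial markers, 2 were well above background on all arrays of each line. Their summed signal, most of it from Mbp, was 8.85 to 9.93 times the 75th percentile in Neo and 6.91 to 7.67 in MR 4-25, and its part in the S100b signal was not tested.

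S100a1, a regulator of calcium release channels in heart muscle, gave 48.7, 22.1 and 74.3 in Neo and 19.9, 13.5 and 73.8 in MR 4-25, where MR 4-25 2 was not well above background. The slide 2 array was again the highest of each line. The log2 difference was −0.38 ± 1.11 (SE, n = 3 per line), with −0.97 on slide 1, 0.81 on slide 2 and 0.46 under another background correction, so the data give it no direction. S100a1, S100a3, S100a4 and S100b were the members whose slide 2 array was, after scaling, the highest of its line in both lines. They were 4 of the 7 members well above background on 3 arrays or more. Among all genes tested, chosen by that same filter, 14.4% did so. For S100a4 the scaled values of MR 4-25 2 and 3 were both 1.87 to 2 decimals.

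S100a8 and S100a9 form calprotectin, the abundant calcium- and zinc-binding complex of neutrophils and monocytes. S100a8 was not well above background on any array, with 3.52, 3.04 and 2.67 in Neo and 2.73, 4.09 and 4.15 in MR 4-25. S100a9 was uneven within each line. It was well above background on Neo 2, Neo 3 and MR 4-25 3, at 81.1, 63.3 and 69.3, and not on Neo 1, MR 4-25 1 or MR 4-25 2, at 3.52, 9.63 and 4.25. The difference in log2 came to −0.60 ± 2.09 (SE, n = 3 per line) and had opposite signs on the slides, −1.37 within slide 1 and 0.95 within slide 2. Of 13 myeloid markers, 8 were well above background on all Neo arrays and 7 on all MR 4-25 arrays, while the granule and receptor genes Camp, Ngp and Csf3r were not so on any array. The summed myeloid signal was 2.29 to 2.70 times the 75th percentile in Neo and 3.57 to 4.29 in MR 4-25, carried mostly by Fcgr3 and Lyz2. These ranges did not overlap. Of the 13, 9 were measured on enough arrays to be tested between the lines and 0 of these 9 passed. The part of such RNA in the S100a8 and S100a9 signals was not tested.

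S100a10 and S100a11 are the annexin-binding members, S100a10 the calcium-independent partner of annexin A2 and S100a11 a partner of annexin A1. Both lie in a separate part of chromosome 3, 2.92 and 2.88 Mb from the S100a6 probe. S100a10 was well above background on MR 4-25 1 alone, at 16.6, against 7.63 and 6.25 on the other MR 4-25 arrays and 6.67, 5.12 and 6.80 in Neo. S100a11 was well above background on MR 4-25 1 alone as well, at 14.4, against 11.7 and 4.15 on the other MR 4-25 arrays and 12.4, 13.6 and 7.97 in Neo. No fold is given for either gene, since 5 of the 6 arrays did not measure it.

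Across the family, 7 of 10 members passed the filter of 3 arrays above background out of 6 and entered the fit over 21341 genes; S100a8, S100a10 and S100a11 did not. Of the 7, S100a6 alone was called higher at an adjusted p of 0.05 and 0 were called lower, where 0.675% of all genes were called higher and 0.558% lower. S100a6 and S100a4 were the 2 members with no overlap between lines, both higher in MR 4-25, where 11.2% of genes did the same. The median log2 difference was 0.31 over the 7 and 0.01 over all genes. These counts describe genes chosen with the contrast known, and nothing is read from them. With the replicate number as a block 0 members were called, as 1 gene was called in all, and S100a6 was also not called without Neo 1 or without Neo 2, where 0 genes were called.

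Along chromosome 3, the 4 consecutive S100 genes S100a3, S100a4, S100a5 and S100a6 all had higher means in MR 4-25 on both slides. For S100a3 and S100a5 the lines overlapped. Higher means on both slides were not particular to these 4. Both slides were above 0 for S100a16 (0.09 and 1.25) and S100b (0.29 and 0.33) as well. The same held near background for S100a8, S100a10 and the probe named S100a15, where it is no measured difference. The slide 2 value of S100a8, 1.45, was also that of probes of Tlr4 and Pvalb that were well above background on 0 arrays. The probes of S100a3, S100a4 and S100a5 lie within 11.7 kb of that of S100a6, with S100a4 at 8.26 kb and S100a5 at 2.61 kb. Toward lower coordinates, S100a16, S100a14, S100a13 and S100a1 lay 71.9, 85.1, 89.3 and 102 kb away and had log2 differences of 0.48, −0.64, 0.09 and −0.38, each within its own spread between arrays. Toward higher coordinates, the probe the array names S100a15, now S100a7a, lay 43.7 kb away and was not well above background on any array, like S100a8 at 55.6 kb. The S100 gene on the X chromosome, S100g, was well above background on 1 array of each line. S100pbp, which encodes a binding partner of an S100 protein and not a family member, differed by −0.02 ± 0.23 and −0.03 ± 0.13 (SE, n = 3 per line) on its 2 probes.

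**Figure D2:**
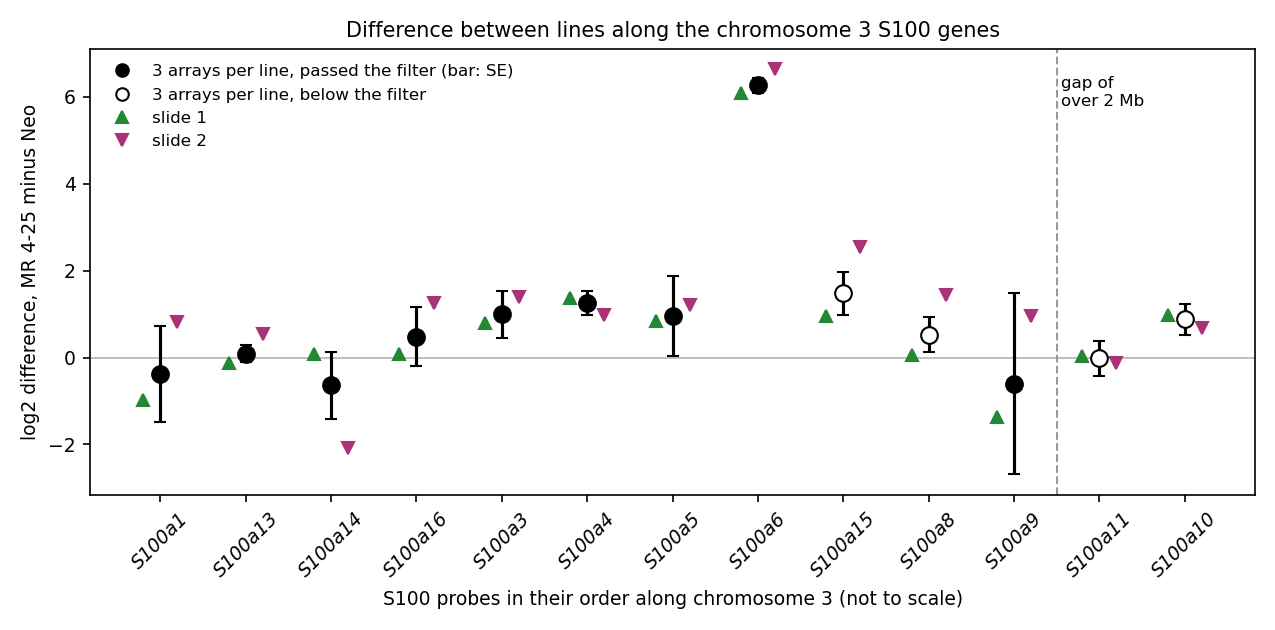
S100 probes are shown in their order along chromosome 3, with the log2 difference of MR 4-25 minus Neo on the vertical axis. Circles are the difference over 3 arrays per line with its SE, open where fewer than 3 of 6 arrays were well above background, and triangles are the differences on slide 1 and slide 2. S100a6 stands at 6.27, and its neighbours S100a3, S100a4 and S100a5 at 1.00, 1.25 and 0.96 with both slides above 0. Both slides are also above 0 for S100a16. The same holds for S100a15, S100a8 and S100a10 at open circles, near background, where it is no measured difference.

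The promoters of S100a6 and its neighbours S100a4 and S100a5 are shown because these genes lie side by side and differ in size of change. S100a3 had several windows and is not shown. RefSeq windows of 250 bases before to 50 after the start, on build GRCm38.p6, were found for 9 of 10 members; S100a10 had no entry. The motifs searched, on both strands, were the TATA box TATAAA, the E-box CACGTG, the AP-1 site TGANTCA, the STAT site TTCNNNGAA and the antioxidant response core TGACNNNGC. The TATA box and the E-box are in capitals in the windows of S100a6 (chr3:90612644-90612943), S100a4 (chr3:90603520-90603819) and S100a5 (chr3:90608272-90608571), all on the forward strand.
S100a6: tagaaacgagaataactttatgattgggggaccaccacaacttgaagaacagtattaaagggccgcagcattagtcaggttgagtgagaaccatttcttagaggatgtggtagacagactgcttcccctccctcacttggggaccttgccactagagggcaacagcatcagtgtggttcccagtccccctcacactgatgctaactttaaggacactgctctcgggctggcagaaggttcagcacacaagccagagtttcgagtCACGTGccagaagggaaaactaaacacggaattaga
S100a4: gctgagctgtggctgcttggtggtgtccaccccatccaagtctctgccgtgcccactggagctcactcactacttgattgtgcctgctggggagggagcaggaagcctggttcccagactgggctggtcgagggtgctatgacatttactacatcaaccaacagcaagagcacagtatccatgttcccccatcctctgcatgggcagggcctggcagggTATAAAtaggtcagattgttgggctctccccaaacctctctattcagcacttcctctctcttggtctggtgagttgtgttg
S100a5: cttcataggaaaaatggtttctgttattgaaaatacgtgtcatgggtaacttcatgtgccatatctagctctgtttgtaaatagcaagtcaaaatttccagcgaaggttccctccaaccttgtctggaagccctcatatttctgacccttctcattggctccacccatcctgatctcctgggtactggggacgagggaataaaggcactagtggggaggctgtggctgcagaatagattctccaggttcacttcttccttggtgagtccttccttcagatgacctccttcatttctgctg
The S100a6 window held CACGTG and none of the other motifs, where 7.15% of 32851 promoter windows held CACGTG. Among the other members, the window of S100a11 held CACGTG as well. The S100a4 window held TATAAA alone, where 13.6% of windows held it, and the S100a5 window held none of them. TATAAA also occurred in windows of S100a3, S100a8 and S100a9. TGANTCA occurred in 7.81% of windows, TTCNNNGAA in 8.30% and TGACNNNGC in 12.4%. These are matches of letters and show no binding.

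Genes around the cluster that belong to no S100 list were tested. The window was set around S100a6, on whose difference the family was chosen, and the list was made with earlier results of these data known. Within 1 Mb of the S100a6 probe there were 35 such genes, of which 0 passed limma after Benjamini-Hochberg adjustment over all genes and 4 had an unadjusted p under 0.05. Over all genes 1.23% were called in either direction and 13.3% had an unadjusted p under 0.05. Their differences had a median of 0.15 in log2 (slide 1 alone 0.16, slide 2 alone 0.12), against 0.01 over all genes. In 10 of the 35 all MR 4-25 arrays were above all Neo arrays, and in 1 all were below, where 11.2% and 13.1% of all genes did so. Dennd4b, a regulator of Rab GTPases, had the largest difference of the 35, 0.80 ± 0.15 (SE, n = 3 per line, limma adjusted p = 0.109), and gave 0.79 within slide 1 and 0.82 within slide 2. It passed with an intensity trend and a robust fit used together (limma adjusted p = 0.0467) and with the filter set to all 6 arrays (adjusted p = 0.0413). The largest in the other direction was the unnamed transcript AK040628, at −0.76 ± 0.51 (adjusted p = 0.624), which was −0.26 without MR 4-25 3 and turned to 0.36 under another background correction. Nearest to S100a6 was AK021069, at 10.4 kb between S100a3 and S100a4, with 0.34 ± 0.18 (adjusted p = 0.523). Chtop, a chromatin and RNA export factor, and Snapin, a SNARE-associated protein, at 114 and 124 kb, differed by 0.12 ± 0.16 (adjusted p = 0.813) and 0.45 ± 0.19 (adjusted p = 0.397). On the far side LOC433614 was the 1 tested gene outside the family, at 468 kb, with 0.02 ± 0.23 (adjusted p = 0.975).

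**Figure D3:**
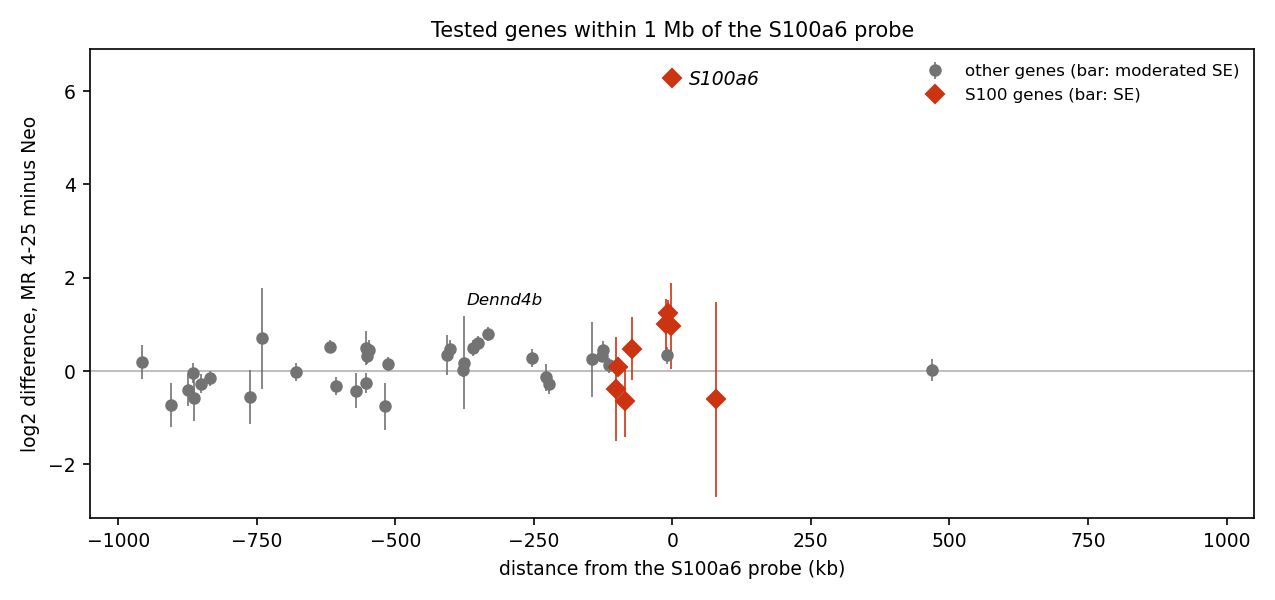
The horizontal axis is the distance from the S100a6 probe in kb and the vertical axis the log2 difference of MR 4-25 minus Neo, for tested genes within 1 Mb. Red diamonds are S100 genes, grey circles other genes, and bars are SE. The grey points lie between −0.76 and 0.80, and S100a6 at 6.27 is far above every other point.

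Annexins bind membranes in the presence of calcium, and several are held together in pairs by S100 dimers. Of 12 annexins listed, 11 were measured on enough arrays, and 0 of 11 passed limma after adjustment while 5 had an unadjusted p under 0.05. Of all genes 1.23% were called and 13.3% had an unadjusted p under 0.05. Their differences had a median of 0.70 in log2 (slide 1 alone 0.50, slide 2 alone 0.94), against 0.01 over all genes. In 4 of the 11 all MR 4-25 arrays were above all Neo arrays, and in 1 all were below, where 11.2% and 13.1% of genes did so. The 4 above, named after their values were seen, were Anxa1, Anxa5, Anxa6 and Anxa7, each by its brightest probe. On a dimmer probe, well above background on all 6 arrays, the lines overlapped for Anxa6 and Anxa7. The log2 differences there were 0.01 and 0.14.

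Anxa1, annexin A1, is a glucocorticoid-induced regulator of leukocyte migration and the partner of S100a11. Its intensities were 9, 100 and 98 in Neo and 981, 622 and 522 in MR 4-25. Neo 1 was not well above background and set most of the spread in Neo. MR 4-25 minus Neo was 4.21 ± 1.06 in log2 (SE, n = 3 per line) and did not pass (limma adjusted p = 0.185). It was 4.70 within slide 1, 3.22 within slide 2 and 3.02 without Neo 1.

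Anxa5, the phosphatidylserine-binding annexin, gave 22240, 19034 and 16211 in Neo and 33669, 33594 and 25697 in MR 4-25, which did not overlap. Its log2 difference of 0.99 ± 0.20 (SE, n = 3 per line, adjusted p = 0.124) passed with an intensity trend and a robust fit used together (limma adjusted p = 0.0307). Anxa2, the partner of S100a10, differed by 0.08 ± 0.44 (SE, n = 3 per line, adjusted p = 0.956) on its brighter probe. On its other probe, well above background on all 6 arrays, the difference was 0.58, with 0.50 within slide 1 and 0.73 within slide 2. All MR 4-25 arrays were above all Neo arrays on that probe, as they were in 11.2% of all genes by the brightest probe. Anxa11, a partner of S100a6, went the other way, at −0.71 ± 0.18 (SE, n = 3 per line, adjusted p = 0.184), and all its MR 4-25 arrays were below all Neo arrays. Anxa10 had the second largest difference, 1.19 ± 0.93 (SE, n = 3 per line, adjusted p = 0.680), with −0.03 within slide 2 and 0.15 without Neo 1.

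**Figure D4:**
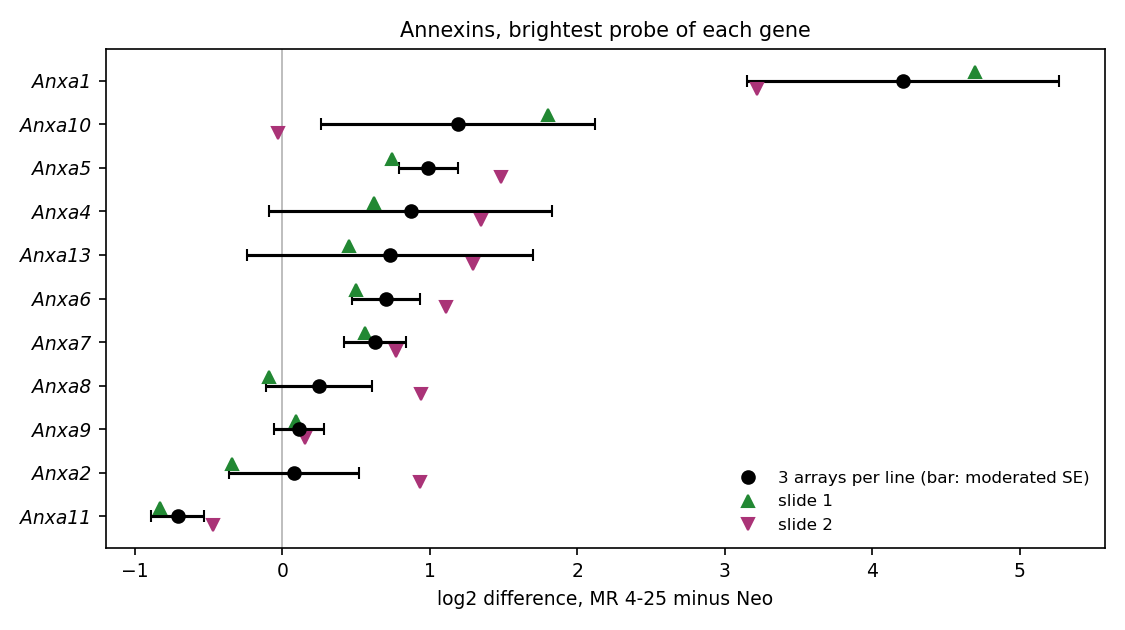
Each row is 1 annexin by its brightest probe, with the log2 difference of MR 4-25 minus Neo on the horizontal axis, its SE as a bar and the differences on slide 1 and slide 2 as triangles. Anxa1 stands at 4.21 with a wide bar, and Anxa11 at −0.71 is the 1 gene below 0.

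Receptors and other targets of S100 proteins were read as a list of 44 genes, of which 40 were tested. Of these 0 passed limma after adjustment and 4 had an unadjusted p under 0.05, against 1.23% and 13.3% of all genes. The median difference in log2 was −0.05 (slide 1 alone −0.01, slide 2 alone 0.06), and 0.01 over all genes. All MR 4-25 arrays were above all Neo arrays in 5 of the 40 and below in 6, where 11.2% and 13.1% of genes did so. Ager, the receptor for advanced glycation end products that binds several S100 proteins, differed by −1.19 ± 0.97 (SE, n = 3 per line, limma adjusted p = 0.689). The value was −0.18 within slide 1, −3.21 within slide 2 and −0.09 without MR 4-25 3, and 0.57 under another background correction. Cacybp, the S100a6-binding ubiquitin ligase adaptor, differed by −0.33 ± 0.19 (SE, n = 3 per line, adjusted p = 0.565). Ahnak, a scaffold held by annexin A2 and S100a10, differed by −0.09 ± 0.22 (adjusted p = 0.903) on its brightest probe, while 5 further probes ranged from −0.58 to 1.13. Ncl, the nucleolar protein nucleolin, was at 7.92 ± 0.12 in Neo and 6.92 ± 0.82 in MR 4-25 (mean log2 ± SD, n = 3, limma adjusted p = 0.421). The difference on this brightest probe was −0.54 within slide 1, −1.90 within slide 2 and −0.53 without MR 4-25 3. Its further probes differed by −0.67, −1.02 and −1.26. On every Ncl probe all MR 4-25 arrays were below all Neo arrays, as they were in 13.1% of all genes by the brightest probe. The Ncl probes were read on the same 6 arrays and are not separate measurements of the lines.

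Other EF-hand proteins, a list of 48 genes from calmodulins to calpains, had 44 tested members. Of these 0 passed limma after adjustment and 4 had an unadjusted p under 0.05, against 1.23% and 13.3% of all genes, and the median difference in log2 was −0.02. All MR 4-25 arrays were above all Neo arrays in 6 of the 44 and below in 4, where 11.2% and 13.1% of genes did so. Pls3, the actin bundler plastin 3, was the highest, from −5.15 ± 0.60 to −3.01 ± 0.34 (mean ± SD, n = 3), a difference of 2.14 ± 0.37 (SE, limma adjusted p = 0.0844). Its limma adjusted p was 0.0187 with the slide in the model, 0.0421 on slide 1 alone and 0.0370 with the filter set to all 6 arrays, so it passed in those 3 fits. It was 0.112 with the replicate block, and the difference was 1.35 with another background correction (limma adjusted p = 0.518). Rcn1, a calcium-binding protein of the endoplasmic reticulum, was the lowest at −1.47 ± 1.06 (SE, n = 3 per line, limma adjusted p = 0.653), −0.35 within slide 1 and −3.73 within slide 2. It was −0.27 without MR 4-25 3 and −0.09 under the other background correction.

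Fibroblast and epithelial cells also carry much S100a6, so their markers were read beside it. The summed signal of 6 fibroblast markers was 0.606 to 1.21 times the 75th percentile in Neo and 0.896 to 1.43 in MR 4-25, and 0 of the 5 that could be tested passed. Of 6 epithelial markers, 3 were well above background on all Neo arrays and 4 on all MR 4-25 arrays. These were keratins, while Epcam and Cdh1 were not well above background on any array. The sum of the 6 was 1.01 to 1.32 in Neo and 1.06 to 1.74 in MR 4-25. The ranges of these sums overlapped between the 2 lines for both cell types. Those of the myeloid and glial sums given above did not overlap. The myeloid sum was higher in MR 4-25, and the glial sum was lower. The part of RNA from any of these cell types in the S100a6 signal was not tested.

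The genes whose pattern over the 6 arrays was most like that of S100a6 were found by Pearson correlation among 15231 genes that were well above background on each of the 6. The closest was BC054101 at 0.9982, followed by the transcript AK166041 at 0.9980, H2-Q2, a class I histocompatibility gene, at 0.9977, TC1466724 at 0.9972 and Oaf at 0.9971. Of these AK166041 and Oaf differed by 5.08 and 4.32 on the log2 scale, and BC054101, H2-Q2 and TC1466724 by 2.48, 1.63 and 1.33. In all, 45 genes had a correlation above 0.99. The 6 points of each gene fall into 2 lines and share arrays and scaling, so the coefficient mostly restates a steady difference between the lines.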

How the data were processed

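The values are Cy3 intensity readings that the authors deposited as scanner output. Per the file headers, Agilent Feature Extraction 9.5.3.1 (version 9.5 in the submitters' processing notes) removed spatial and multiplicative trends within each array, with surrogate values for dim spots. Flags for signal well above background, saturation and outliers come from the same deposited files. A deposited value table held the same intensities in all 6 columns. Probe positions are on build mm7 per the file headers.

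Control spots were left out, outlier spots masked, spots of a probe averaged on the log2 scale of the deposited intensities, and each array set relative to its 75th percentile. The filter, signal well above background on 3 of 6 arrays or more, kept 30965 of 41174 probes, and the brightest probe stood for each of 21341 genes. RefSeq accessions named 22951 probes and synonyms 3109. Lines were compared as MR 4-25 minus Neo with limma 3.58.1 (R 4.3.3), lmFit and eBayes, Benjamini-Hochberg adjusted over all genes, tested on simulated data. SE is the moderated error of that fit, except for S100 genes, where it comes from the SDs of the lines. The spread behind the p-values is that between the samples given and could be technical only. Array number limits the precision.

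Members and lists were chosen with earlier results of these data known. Named genes were the members, 6 best-known partners and targets (Anxa1, Anxa2, Anxa11, Ahnak, Cacybp, Ager), the 2 largest differences of a list with no call, the nearest 3 on each side and the 5 most alike; markers come from lists of cell types, and Anxa5, Anxa6 and Anxa7 were named after their values were seen. Same-numbered arrays deviated together (correlations 0.29, 0.21 and 0.56, above 0.1 in each), so a replicate block was also fitted. Alternatives were another background correction (normexp, offset 50), scaling, filter, probe rule, the value table, slide or replicate block, slide 1 alone, an intensity trend with a robust fit, and leaving out each array. Figures used matplotlib 3.10.9.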

Additional observations from a re-analysis of the deposited data

How the results depend on the processing

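The log2 differences of S100a3, S100a4, S100a6, S100a8 and S100a10 kept their sign under all 18 alternatives. S100a6 was between 5.72 and 6.38 and S100a4 between 1.08 and 1.46. For S100a8 and S100a10, well above background on 0 and 1 arrays, a steady sign is no measured difference. The differences of S100a1, S100a9, S100a11, S100a13 and S100b changed sign under 1 to 5 of the alternatives. Normexp background correction moved the median over all genes to 0.34, against which S100a6 was at 5.72, S100a4 at 1.13, S100a3 at 0.80, S100b at 0.46 and S100a13 at 0.41. The number of genes called, 263, became 80 with normexp, 524 with the filter on all 6 arrays, 718 with the intensity trend and robust fit together, 124 on slide 1 alone and 1 with the replicate block, and 0 to 223 when 1 array was left out; it was 347 counting every probe. Members called, a description of genes chosen on this contrast, were 1, but 2 with trend and robust fit, 0 with the replicate block and 0 to 1 without 1 array. Annexins called went from 0 to 1 with trend and robust fit, genes near S100a6 from 0 to 2 with trend and robust fit and 1 with the filter on all 6 arrays, and other EF-hand proteins from 0 to 1 with that filter, with the slide block and on slide 1; the replicate block changed no other call. Signs turned for Ager (0.57), Chtop (−0.19) and AK040628 (0.36) with normexp, for Ahnak with the mean over probes (0.05), and for Anxa2 (−0.34) and LOC433614 (−0.21) on slide 1. Without 1 array the ranges were −0.37 to 0.47 for Anxa2, −0.21 to 0.07 for Ahnak and −0.11 to 0.21 for LOC433614. The cause of these shifts was not tested. Signals near background limit what S100a8, S100a9, S100a10 and S100a11 can show.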
